A study of Mus musculus with 10 samples.

Results

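The carboxylesterases described here are 8 mouse genes, Ces1d, Ces1e, Ces1f, Ces1g, Ces2a, Ces2b, Ces2c and Ces2e, out of 23810 genes in a single-cell RNA-sequencing table of intestinal organoids and colonic crypts. They were taken as a family by name, and the choice was made because Ces1f was among the largest falls of the table in Hyper-organoids against ENR-organoids. The values of that contrast, and those of Ces1f in every contrast, are therefore a description given without a p-value, and Ces1f is left out of the counts of calls in the contrasts that were tested. All 8 genes had a row and all 8 passed the filter on low counts in the fit over the organoid libraries.

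Organoids grown from crypts of the mouse proximal small intestine were kept in 3 media. ENR medium holds EGF, Noggin and R-Spondin 1, and 3 libraries were made at passages 2, 7 and 3. Hyper medium holds LDN193189 (a blocker of BMP receptors), GSK-3 Inhibitor XV, Pexmetinib, EGF, R-Spondin 1 conditioned medium and FGF2 together with 500 μM VPA (valproic acid, which inhibits histone deacetylases) and 2 μM EPZ6438 (which inhibits the histone methyltransferase EZH2), and its 3 libraries came from passages 1, 6 and 3. The -VE-organoids are the culture without VPA and EPZ6438, with 2 libraries at passages 1 and 6. The culture series in the labels are 2 for replicate 1, 6 for replicate 2 and C for replicate 3. In series 2 and 6 the Hyper- and -VE-organoids were derived from ENR-organoids, and in series C the organoids were started from primary crypts. The age and genotype of the donor mice of each library are not given in the labels, nor whether replicates came from separate mice, so p-values measure the spread between these libraries, which may be technical. The methods give an age range over all mice used for organoid culture, and females of a single age for the colitis model. They name C57BL/6 mice, Lgr5-EGFP-IRES-creERT2 mice and a tdTomato reporter line, without assigning them to libraries. Colonic crypts gave 1 library from normal mice and 1 from mice treated with dextran sulfate sodium (DSS), which injures the colonic epithelium.

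Kept cells numbered 1983 to 4293 in the organoid libraries, with 89124015 to 170019527 UMIs (unique molecular identifiers, 1 per captured transcript). The normal and DSS colonic libraries held 1132 and 1933 cells with 19906845 and 32397122 UMIs. Levels are in CPM, the usual scaling of a gene's UMIs to a common total of UMIs in the same library or class. For single genes over all kept cells of an organoid library that total carries edgeR's TMM scaling factor, whereas levels within classes or clusters, summed marker levels and colonic levels use the plain total. Each transcript is counted once near its 3′ end, so CPM can be compared between genes without a correction for length. Of 25124 distinct cell barcodes, 79 occurred in more than 1 library. Leukocyte markers were near 0 in the organoids, where the summed level of 5 markers was 0.422 to 0.709 CPM and Ptprc itself was at 0 in 7 of the 8.

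Carboxylesterases are serine hydrolases of the endoplasmic reticulum that cleave ester and amide bonds in lipids, drugs and other foreign compounds. Enterocytes and hepatocytes are their main sites of expression, and in the intestine they take part in the first passage of ester prodrugs and in the handling of absorbed triacylglycerol. The mouse has more copies of the Ces1 and Ces2 genes than humans, arranged in tandem.

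All 8 members lie on chromosome 8 (GRCm38, the build of the files). The 4 Ces1 members lie on the minus strand within 171 kb, Ces1d at chr8:93166068-93197838, Ces1e at chr8:93201218-93229619, Ces1f at chr8:93256236-93279747 and Ces1g at chr8:93302369-93337308. The 4 Ces2 members lie on the plus strand within 201 kb, Ces2a at chr8:104734003-104741634, Ces2b at chr8:104831572-104840093, Ces2c at chr8:104847068-104854483 and Ces2e at chr8:104926260-104934672. The blocks are 11.4 Mb apart. Coding sequences of GENCODE transcripts were 75.6% to 81.8% identical between Ces1 members, 83.0% to 92.1% between Ces2 members and 64.6% to 67.4% across the blocks, with Ces2b and Ces2c the closest pair.

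Close copies can share reads, so the last 500 bases of each transcript, where 3′ libraries are read, were searched for stretches of 50 bases that also occur in another gene. Ces1e, Ces1g and Ces2e had 0 such stretches among 451. Ces1d had 1.77% and Ces1f 2.22%, shared among Ces1 members, and Ces2b had 0.443%, shared with genes outside the family. Ces2a had 9.98%, shared with Ces2b, Ces2e and the predicted gene Gm7208, and Ces2c had 35.7%, shared with Ces2b, Ces2e and the pseudogene Ces2d-ps. Counts of Ces2c are the least certain on this measure, because a read inside a shared stretch cannot be assigned to 1 gene.

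The promoters of 3 Ces2 members are shown because 1 of them, Ces2a, differed from the others across the Hyper-organoid libraries, and that of Ces1g because it alone held a searched motif. RefSeq promoters (GRCm38.p6, 250 bases before to 50 bases after the start) were given for 5 of the 8 members. In the 3 Ces2 sequences, capitals mark the longest runs that Ces2a shares with Ces2e, 17 bases, and with Ces2c, 11 bases. In Ces1g they mark the CDX2 motif TTTATGG. The sequences stand at chr8:104733753-104734052 (plus strand), chr8:104846818-104847117 (plus), chr8:104926010-104926309 (plus) and chr8:93337160-93337459 (minus), and each is written 5′ to 3′ on the strand of its gene.
Ces2a: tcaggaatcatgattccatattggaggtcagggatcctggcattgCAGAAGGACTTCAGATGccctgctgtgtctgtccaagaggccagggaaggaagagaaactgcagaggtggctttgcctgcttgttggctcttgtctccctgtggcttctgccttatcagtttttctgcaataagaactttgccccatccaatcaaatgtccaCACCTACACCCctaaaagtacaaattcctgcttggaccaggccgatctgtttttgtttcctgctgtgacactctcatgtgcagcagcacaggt
Ces2c: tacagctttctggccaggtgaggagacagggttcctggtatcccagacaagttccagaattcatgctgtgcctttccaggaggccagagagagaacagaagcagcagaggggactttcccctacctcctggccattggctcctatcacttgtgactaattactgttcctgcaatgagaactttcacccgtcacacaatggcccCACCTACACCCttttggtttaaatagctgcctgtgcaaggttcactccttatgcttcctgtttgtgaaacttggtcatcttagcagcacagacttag
Ces2e: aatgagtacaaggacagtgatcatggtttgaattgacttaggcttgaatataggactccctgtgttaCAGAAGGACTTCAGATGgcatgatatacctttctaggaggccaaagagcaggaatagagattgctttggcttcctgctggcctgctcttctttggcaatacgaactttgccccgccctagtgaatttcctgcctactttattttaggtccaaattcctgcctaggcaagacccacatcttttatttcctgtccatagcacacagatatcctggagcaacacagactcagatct
Ces1g: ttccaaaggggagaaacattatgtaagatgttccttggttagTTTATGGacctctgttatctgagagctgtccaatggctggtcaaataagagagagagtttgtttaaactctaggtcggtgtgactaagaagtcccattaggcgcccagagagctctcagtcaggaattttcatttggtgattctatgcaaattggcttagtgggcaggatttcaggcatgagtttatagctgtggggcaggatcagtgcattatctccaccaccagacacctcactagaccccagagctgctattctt

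The run shared by Ces2a and Ces2e begins 205 bases before the start of Ces2a and 183 before that of Ces2e, and 2 of 32851 promoters held it, which are these. The run shared with Ces2c begins 43 and 47 bases before the starts and occurred in 11 promoters (0.0335%). By global alignment the Ces2a promoter was 68.7% identical to that of Ces2c and 69.1% to that of Ces2e. Motifs of 4 regulators were searched on both strands: HNF4 (CAAAGTCCA, held by 0.475% of all promoters), HNF1 (its palindromic site, 0.00913%), CDX2 (TTTATTG, 4.6%, and TTTATGG, 2.75%) and the PPAR/RXR direct repeat (0.0396%). The search gave 1 match in the 5 promoters, TTTATGG beginning 208 bases before the start of Ces1g.

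Where are these genes expressed? In ENR-organoids every member was highest in the enterocyte class (EC), as the authors annotated their cells. The class was defined on these same cells and genes, so differences between classes are a description and were not tested. In 3 libraries, enterocytes held 984 ± 48.4 CPM of Ces2a, 724 ± 98.1 of Ces2e and 432 ± 39.1 of Ces2c, the 3 most abundant members (mean ± SD, n = 3 libraries). Among the Ces1 genes, Ces1f stood at 244 ± 31.2 CPM, above Ces1d at 54.7 ± 17.8, Ces1e at 44.8 ± 7.52 and Ces1g at 22.2 ± 10.7. Ces2b was detected at 2.13 ± 0.355 CPM. The ranges of the 3 libraries overlapped for Ces1d and Ces1e and did not overlap between Ces2a, Ces2e, Ces2c and Ces1f.

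Enterocyte progenitors (EP) came next for 7 of the 8 members, all but Ces1d. In ENR-organoids Ces2a was at 193, 225 and 204 CPM in this class, Ces2e at 207, 231 and 193, and Ces1f at 40.6, 44.4 and 30.9. In the stem class (SC) Ces2e, at 95.4, 101 and 96.6 CPM, was the most abundant member, ahead of Ces2a at 44.4, 46.2 and 53.7. The enteroendocrine class (EE), the hormone-secreting cells, held little Ces1f, with 0, 4.92 and 0 CPM, but retained Ces1d at 16.3, 11.2 and 10.3 CPM, above its level in progenitors. The level in enterocytes over that in stem cells of the same library was 22.3 to 27.7 for Ces1f, 18.1 to 22.5 for Ces2a, 6.41 to 8.02 for Ces2e and 4.81 to 7.09 for Ces1d.

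**Figure D1:**
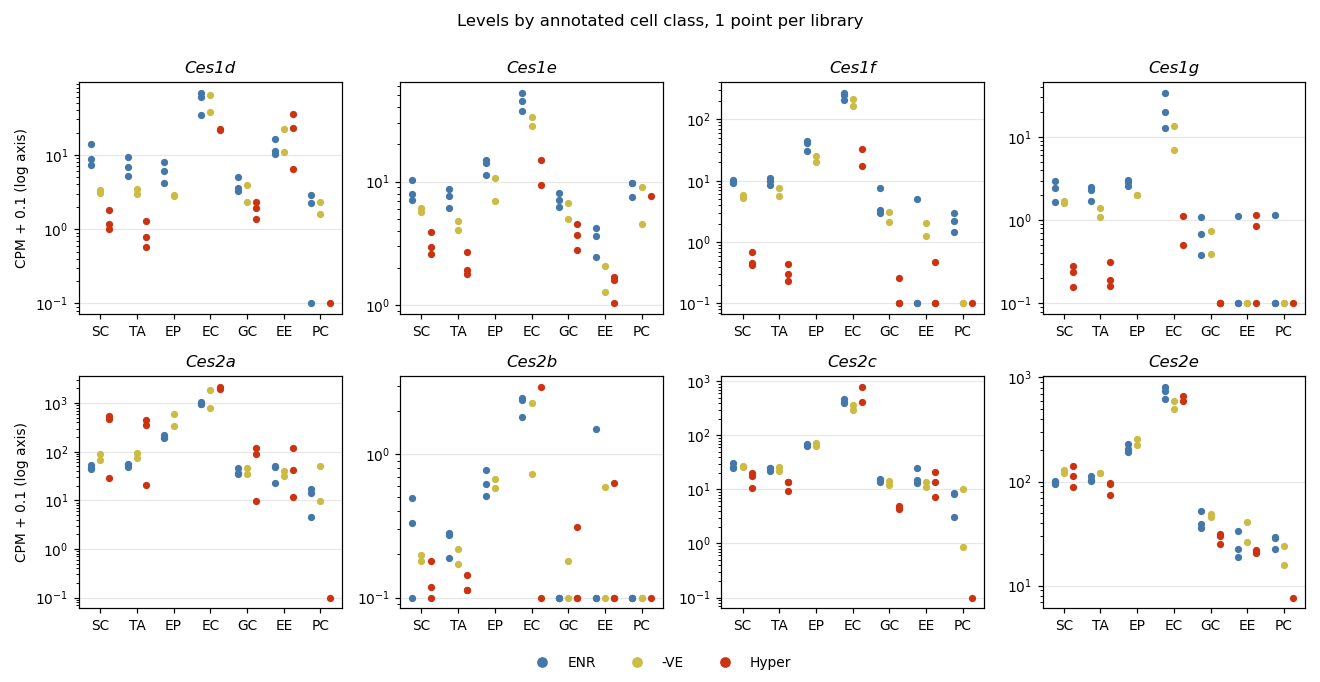
Levels of the 8 carboxylesterase genes in 7 annotated classes (SC stem, TA transit-amplifying, EP enterocyte progenitor, EC enterocyte, GC goblet, EE enteroendocrine, PC Paneth), as CPM + 0.1 on a log axis, with 1 point per library of at least 10 cells coloured by medium. Enterocytes are highest for nearly every gene, the red Hyper points of Ces1f lie lowest in the stem, transit-amplifying, goblet and enterocyte classes, and those of Ces2a split between 29.1 CPM and 463 to 541 CPM in the stem class.

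Enterocytes and their progenitors made up 32.0%, 37.5% and 46.9% of kept cells in the ENR libraries, 10.6% and 9.97% in the -VE libraries and 0.356%, 1.73% and 1.16% in the Hyper libraries. Summed levels of the 4 enterocyte markers (Fabp1, Apoa1, Reg1, Rbp2) moved the same way, from 1684 to 2340 CPM in ENR-, 676 to 706 in -VE- and 134 to 585 in Hyper-organoids. Differences over all kept cells thus stand beside a difference in cell types, and values within a class are given where the class held enough cells. In the whole libraries, fewer cells of a type and less RNA per cell cannot be told apart. Values within a class can also hold stray transcripts of other cell types, and the part of these was not tested.

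What does the medium do without VPA and EPZ6438? The -VE-organoids held less Ces1d and Ces1e than ENR-organoids, by about a factor of 2, and the values of Ces1f were lower as well. Ces1e, also known as egasyn, an anchor of beta-glucuronidase in the endoplasmic reticulum, stood at 13.8, 13.7 and 12.05 CPM in ENR- and 6.51 and 6.40 CPM in -VE-organoids, without overlap. Its log2 fold change was -1.03 ± 0.15 (SE; edgeR's quasi-likelihood test, Benjamini-Hochberg adjusted p = 0.00882 over 16037 genes). Ces1d, a triacylglycerol hydrolase, stood at 14.01, 12.9 and 8.37 CPM in ENR- and 6.93 and 4.75 CPM in -VE-organoids, a log2 fold change of -1.01 ± 0.24 (edgeR adjusted p = 0.0404). The call of Ces1d was lost in 6 of the 8 fits that leave out 1 library, all but those without ENR replicate 3 or Hyper replicate 1 (-1.31 to -0.77 over all), and with cells thinned to 10000 UMIs (-1.05, edgeR adjusted p = 0.0672), and that of Ces1e when ENR replicate 1 or -VE replicate 2 was left out.

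Ces1f, a triacylglycerol hydrolase related to Ces1d, was at 36.3, 49.1 and 39.9 CPM in ENR- and 17.4 and 14.9 CPM in -VE-organoids, a log2 fold change of -1.37 ± 0.22. Ces1g and Ces2b lay lower in both -VE libraries than in any ENR library but did not pass, with log2 fold changes of -1.28 ± 0.34 (edgeR adjusted p = 0.0571) and -1.38 ± 0.35 (edgeR adjusted p = 0.0502). A replicate block for the culture series brought Ces1g past the threshold (-1.34, edgeR adjusted p = 0.0364), as did DESeq2 and the fit without a filter on low counts, and Ces2b passed with cells of at least 1500 genes (-1.39, edgeR adjusted p = 0.04995). Ces2c (-0.89 ± 0.33), Ces2e (-0.44 ± 0.16) and Ces2a (-0.26 ± 0.89) did not pass, with edgeR adjusted p-values of 0.145, 0.155 and 0.897. Of the 7 members other than Ces1f, 2 were called lower, Ces1d and Ces1e, a call being made at an adjusted p below 0.05 with a 2-fold or greater difference. The share of all tested genes called lower was 1.2%, and the median log2 fold change of the 7 was -1.01, beside 0.00 over all genes. The count was 0 without -VE replicate 2 or without ENR replicate 1, where 0.579% and 1.58% of all tested genes were called in either direction, beside 2.55% with all libraries. It was 1 without ENR replicate 2 or Hyper replicate 3 (0.944% and 2.61% of all genes) and 4 without Hyper replicate 1 (3.28%). The count of 2 did not hold without -VE replicate 1 either, where Ces1d, at -1.31, was not called. Nor did it hold with cells thinned to 10000 UMIs. The Hyper libraries are not compared in this contrast. They enter it through the shared estimate of the spread, the scaling and the filter on low counts, which left 15844 genes without Hyper replicate 1.

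What do VPA and EPZ6438 add to that medium? Against -VE-organoids, Hyper-organoids held less of every Ces1 member and of Ces2b and Ces2c. The fall was deepest among the tested members for Ces1g, a lipid hydrolase, at 1.83 and 1.60 CPM in -VE- and 0.204, 0.0597 and 0.127 CPM in Hyper-organoids. Its log2 fold change was -3.71 ± 0.37 (edgeR adjusted p = 0.000186). The Hyper values of Ces1g rest on 30, 9 and 12 UMIs per library.

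Ces1d fell to 1.65, 1.499 and 1.57 CPM, a log2 fold change of -1.89 ± 0.23 (edgeR adjusted p = 0.000497), and the 3 Hyper libraries lay close together. Ces1e fell to 2.97, 2.29 and 2.10 CPM, a change of -1.39 ± 0.15 (edgeR adjusted p = 0.00023). For both genes every Hyper library was below both -VE libraries. Ces1f had 0.733, 0.822 and 0.390 CPM in Hyper-organoids, a difference of -4.59 ± 0.24 on the log2 scale, and the -VE libraries were more than an order of magnitude above all of them.

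In the Ces2 block Ces2c and Ces2b fell. Ces2c, which hydrolyses di- and triacylglycerol, went from 44.9 and 40.1 CPM to 10.6, 26.8 and 19.5 CPM, a log2 fold change of -1.16 ± 0.32 (edgeR adjusted p = 0.0169). The call of Ces2c was lost without -VE replicate 1 (-1.07, edgeR adjusted p = 0.083), without -VE replicate 2 (-1.23, edgeR adjusted p = 0.0645) and, below the 2-fold limit, without Hyper replicate 1 (-0.87). Ces2b, counted by 4 to 9 UMIs in each Hyper library, changed by -1.90 ± 0.39 (edgeR adjusted p = 0.005). It passed the filter on low counts through the -VE libraries, with 25 UMIs each, and the ENR libraries, with 42, 44 and 53. Its p-value is therefore that of a gene kept through the groups where it is higher. Ces2e stood at 153 and 140 CPM in -VE- and 73.0, 101 and 108 CPM in Hyper-organoids, a change of -0.64 ± 0.16 that passed the p threshold (edgeR adjusted p = 0.0126) but not the 2-fold limit. Of the 7 members other than Ces1f, 5 were called lower, Ces2b with its few UMIs among them, where 2.51% of all tested genes were called lower. The median log2 fold change of the 7 was -1.39, beside 0.01 over all genes.

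**Figure D2:**
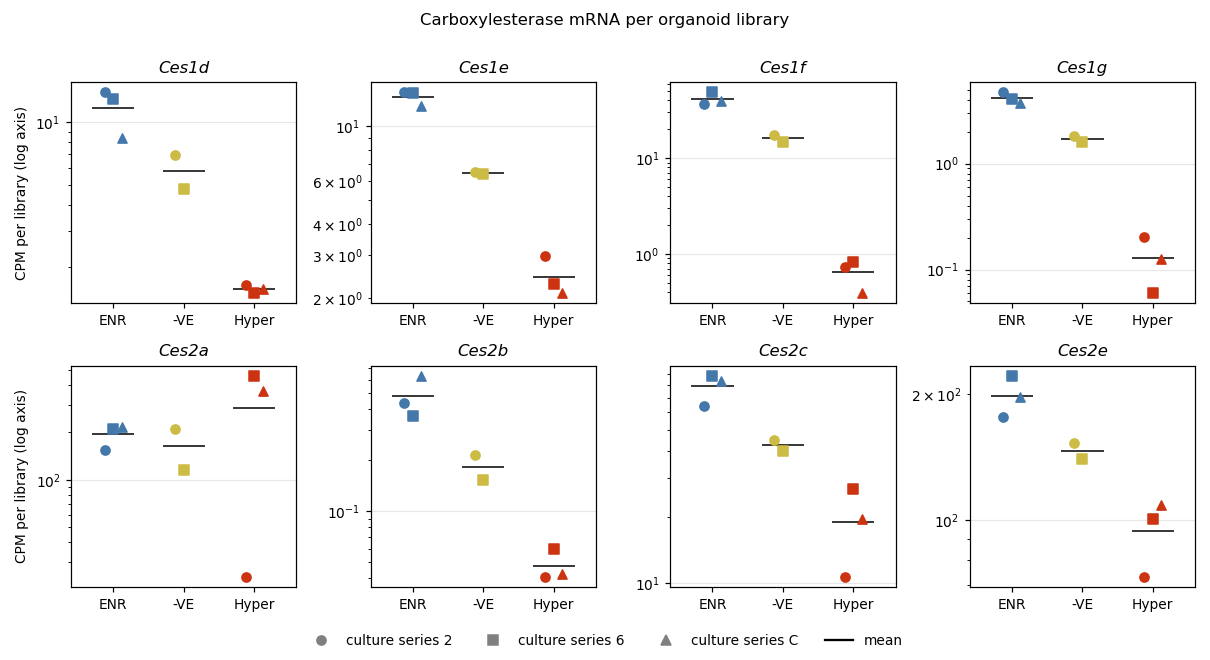
CPM of each carboxylesterase gene in the 8 organoid libraries on a log axis that differs between panels, with bars at group means and marker shapes for the culture series. The 7 genes other than Ces2a step down from ENR through -VE to Hyper, while Ces2a has 1 Hyper library at 24.1 CPM and the others at 369 and 460 CPM.

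Against ENR-organoids, the contrast that led to the choice of Ces1f, Hyper-organoids held Ces1f at a log2 difference of -5.96 ± 0.24, from a mean of 41.8 ± 6.65 to 0.649 ± 0.228 CPM (SD, n = 3 libraries each). The other differences were -4.99 ± 0.36 for Ces1g, -3.28 ± 0.35 for Ces2b, -2.90 ± 0.22 for Ces1d, -2.42 ± 0.14 for Ces1e, -2.05 ± 0.30 for Ces2c, -1.07 ± 0.15 for Ces2e and 0.55 ± 0.80 for Ces2a. Within the culture series the Ces1f ratio of Hyper to ENR was -5.63, -5.90 and -6.67 on the log2 scale, and Ces1g, Ces1d, Ces1e, Ces2b, Ces2c and Ces2e were lower in each of the 3 series. The limits of a call were passed downwards by 7 of the 8 members and by 4.75% of all tested genes, a count from which nothing is read, since this contrast led to the choice. This contrast shares the Hyper libraries with the preceding contrast and the ENR libraries with the first, so the 3 sets of values are not independent.

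Little Ces1f was counted in Hyper-organoids, and much of it in few cells. In the Hyper libraries 108, 124 and 37 Ces1f UMIs were counted in all, and 61, 79 and 17 of them came from enterocytes and progenitors, which were 0.356% to 1.73% of the cells. In the stem class Ces1f was at 9.06, 10.3 and 9.43 CPM in ENR-, 5.10 and 5.78 CPM in -VE- and 0.603, 0.327 and 0.358 CPM in Hyper-organoids. After each cell was thinned to 10000 UMIs, 6.01% to 9.84% of ENR stem-class cells, 3.93% and 5.27% of -VE and 0.716%, 0.274% and 0.118% of Hyper stem-class cells held a Ces1f UMI. The same shares without thinning were 18.8% to 20.8%, 13.6% and 11.996%, and 1.78%, 1.01% and 1.14%. In enteroendocrine cells, where ENR-organoids held the least Ces1f, the thinned share was 0 to 2.94% over the 8 libraries. In the Hyper libraries it was 1 of 91 cells, 0 of 100 and 0 of 78, and a count of 0 allows a share of up to 3% and 3.85%. Too few enteroendocrine cells were counted to tell the Hyper stem-class share from theirs. Median depths of the stem class were 31294 to 40397.5 UMIs in ENR- and 33335 to 42140 in Hyper-organoids, and those of the enteroendocrine class 14295 to 24908 over the 8 libraries.

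In enterocytes Ces1f was at 251, 272 and 211 CPM in ENR-, 212 and 164 CPM in -VE- and 32.4 and 17.5 CPM in Hyper-organoids, where Hyper replicate 1 had 7 enterocytes and was left out. The Hyper-organoid enterocytes numbered 58 and 21. They were clear of the other libraries for Ces1f. Their summed enterocyte markers, at 28454 and 16845 CPM, were above or within the range of the other media, 9123 to 19192 CPM. That sum follows its most abundant markers, and the part of enterocyte maturity in the Ces1f values was not tested. The enterocyte differences of Ces1f were -2.79 ± 0.24 against -VE- and -3.23 ± 0.23 against ENR-organoids on the log2 scale.

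Differences of the Ces1 genes between media were also measured within the stem and transit-amplifying classes. Each of these classes joins cells that fell into different clusters of the authors' clustering in Hyper- and ENR-organoids, and the cluster numbers of organoid cells were not used here. Stem-class cells of the Hyper libraries held summed levels of 923, 295 and 268 CPM of the 4 stem markers (Lgr5, Ascl2, Olfm4, Cd44), below the 2664 and 1958 CPM in -VE- and 3157 to 4560 CPM in ENR-organoids, and the part of this in the values by class was not tested. The sum follows its most abundant markers and does not show each of the 4. The authors describe Lgr5, Cd44 and Ascl2 as shared by Hyper- and ENR-organoid stem cells, and Olfm4 as lower in injury-responsive Lgr5+ ones. In stem-class cells Hyper- against -VE-organoids changed by -3.71 ± 0.43 for Ces1g (edgeR adjusted p = 0.00018), -1.43 ± 0.30 for Ces1d (edgeR adjusted p = 0.00422) and -1.03 ± 0.20 for Ces1e (edgeR adjusted p = 0.00278). Ces1g stood there at 1.58 and 1.52 CPM in -VE-organoids and at 0.0578 and 0.138 CPM in Hyper replicates 2 and 3. These Hyper values rest on few UMIs, since all classes of the Hyper libraries held 30, 9 and 12. Hyper replicate 1 also entered the fit, and its stem-class value is not given here. Over all kept cells it held the most Ces1g of the Hyper libraries, at 0.204 CPM. The gene passed the filter on low counts through the other media. The Ces1e call was lost, below 2-fold, with the culture series as a replicate block (-0.95) and without -VE replicate 1 (-0.99), Hyper replicate 2 (-0.96) or Hyper replicate 3 (-0.92). In transit-amplifying cells, the dividing progeny of stem cells, the changes were -3.26 ± 0.43, -2.09 ± 0.34 and -1.20 ± 0.20, with edgeR adjusted p-values of 0.000445, 0.00131 and 0.00153. Ces2c and Ces2b also fell there, by -1.07 ± 0.17 (edgeR adjusted p = 0.00122) and -2.27 ± 0.69 (edgeR adjusted p = 0.0245). The Hyper side of Ces2b rests on few UMIs, since all classes of the Hyper libraries held 6, 9 and 4, and Ces2b passed the filter through the other media. The call of Ces2c was lost, below 2-fold, without Hyper replicate 1 (-0.89) or -VE replicate 2 (-0.99), and that of Ces2b without -VE replicate 2 (-1.86, edgeR adjusted p = 0.183). The shares of all genes called lower in these classes were 1.76% and 2.32%. Ces1e also changed in enterocytes, by -1.22 ± 0.25 (edgeR adjusted p = 0.012; background 1.75% called lower), a call lost without -VE replicate 1. Ces1d (-1.18 ± 0.39, edgeR adjusted p = 0.0746) and Ces1g (-4.03 ± 1.19, edgeR adjusted p = 0.0504) did not pass in enterocytes, nor did Ces1d (-0.76 ± 0.39, edgeR adjusted p = 0.195) and Ces1e (-0.72 ± 0.28, edgeR adjusted p = 0.0935) in goblet cells. Ces1d in enteroendocrine cells was at 22.2 and 10.9 CPM in -VE- and 6.40, 22.7 and 35.9 CPM in Hyper-organoids, with overlapping groups (0.34 ± 0.54, edgeR adjusted p = 0.792).

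In the stem class Ces2e stood at 95.4, 101 and 96.6 CPM in ENR-, 129 and 121 in -VE- and 89.4, 114 and 140 CPM in Hyper-organoids. The Hyper range overlapped both others, and those of ENR- and -VE-organoids did not overlap each other. Hyper- against -VE-organoids differed by -0.23 ± 0.16 (edgeR adjusted p = 0.258) in stem cells and by 0.22 ± 0.15 (edgeR adjusted p = 0.362) in enterocytes. In transit-amplifying and goblet cells the Ces2e differences were -0.57 ± 0.11 (edgeR adjusted p = 0.00296) and -0.78 ± 0.15 (edgeR adjusted p = 0.00385), both under the 2-fold limit, and the whole libraries gave -0.64. Ces2c was at 27.4 and 26.0 CPM in -VE- and 10.7, 17.8 and 20.4 CPM in Hyper-organoid stem cells, a difference of -0.82 ± 0.22 (edgeR adjusted p = 0.0139) under the 2-fold limit. In enterocytes Ces2c went the other way, from 373 and 300 CPM to 796 and 423 CPM (0.88 ± 0.24, edgeR adjusted p = 0.0407, also under 2-fold). In goblet cells, which secrete mucus, Ces2c fell from 11.8 and 14.1 to 4.92, 4.40 and 4.23 CPM (-1.57 ± 0.19, edgeR adjusted p = 0.000167; background 1.15% called lower).

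Between -VE- and ENR-organoids, 2 within-class calls were made among the members with a test. Ces1d fell in the stem class from 13.7, 8.60 and 7.20 to 2.97 and 3.22 CPM (-1.68 ± 0.31, edgeR adjusted p = 0.0311; background 0.273% called lower), and the call was lost when either -VE library or any 1 ENR library was left out. Ces2a rose in progenitors from 193, 225 and 204 to 602 and 333 CPM (1.19 ± 0.19, edgeR adjusted p = 0.0258; background 0.206% called higher), and this call was lost without ENR replicate 1, without ENR replicate 2 and, at 0.70, without -VE replicate 1.

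**Figure D3:**
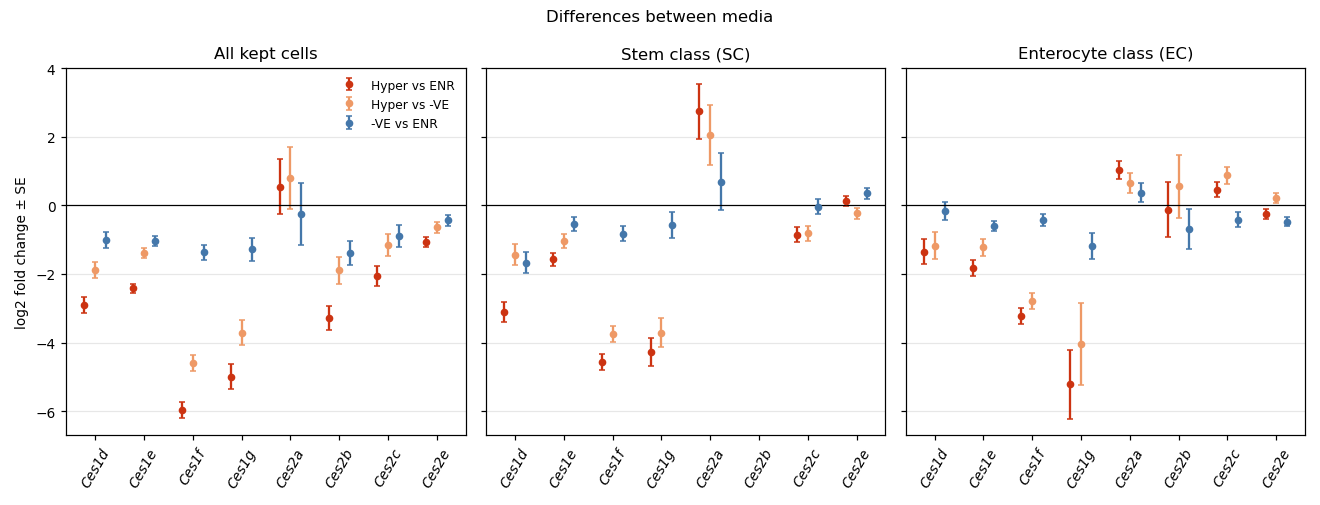
Log2 fold changes with SE for the 8 genes over all kept cells, in stem-class cells and in enterocytes, for the 3 contrasts between media, which share libraries. Ces1f and Ces1g lie far below 0 in all panels for both Hyper contrasts, Ces2e lies near 0 within the stem class, and Ces2a lies above 0 there with wide error bars (Ces2b was not tested in the stem class).

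Ces2a, an ester hydrolase of intestine and liver, was the member with no call in any of the 3 contrasts over all kept cells. Over all kept cells it was at 155, 211 and 218 CPM in ENR-, 211 and 115 CPM in -VE- and 24.1, 460 and 369 CPM in Hyper-organoids. Hyper replicate 1, passage 1 of series 2, was the lowest of the 8 libraries and the other Hyper libraries were the highest. Against -VE-organoids the log2 fold change was 0.80 ± 0.91 (edgeR adjusted p = 0.5), and with 1 library left out it ranged from 0.27 to 1.35. The highest was without Hyper replicate 1 (edgeR adjusted p = 0.00663), with 2 libraries on each side. Nothing is read from that p-value, since it comes from leaving out the library that stood apart. Within series 2 the Hyper to ENR ratio was -2.69 on the log2 scale, within series 6 it was 1.12 and within series C 0.76. Replicates 1 and 2 were derived from ENR-organoids and replicate 3 from primary crypts. Passage and culture series both differ between replicate 1 and the others and cannot be told apart, and the part of origin was not tested.

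The split was also present within classes, and narrower in goblet than in stem-class cells. Stem-class cells held 44.4, 46.2 and 53.7 CPM of Ces2a in ENR-, 87.7 and 67.6 in -VE- and 29.1, 541 and 463 CPM in Hyper-organoids. Transit-amplifying cells of the Hyper libraries held 20.9, 441 and 348 CPM, and goblet cells 9.67, 119 and 89.99 CPM. Against -VE-organoids the stem-class difference was 2.05 ± 0.87 (edgeR adjusted p = 0.0832), and without a filter on low counts it was 2.08 (edgeR adjusted p = 0.0122). With 1 library left out it ranged from 1.61 to 2.62, the highest being without Hyper replicate 1 (edgeR adjusted p = 8.93e-07). Nothing is read from that p-value, since it comes from leaving out the library that stood apart. Against ENR-organoids the stem-class difference was 2.74 ± 0.79. Thinned to 10000 UMIs, stem-class cells of Hyper replicates 2 and 3 held 5.53 and 4.78 Ces2a UMIs on average and those of replicate 1 held 0.293, while Ces2e averaged 0.868 to 1.38 UMIs across them. A share of 73.6% and 67.5% of these cells held a Ces2a UMI in replicates 2 and 3 against 16.7% in replicate 1, where enteroendocrine cells had 28.0% and 23.1% against 8.79%, in the same order. Ces2e stayed within 73.0 to 108 CPM across the 3 Hyper libraries over all kept cells. Ces2a shares some 3′ stretches with Ces2e, Ces2b and Gm7208, and the part of shared reads in the Ces2a values was not tested.

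**Figure D4:**
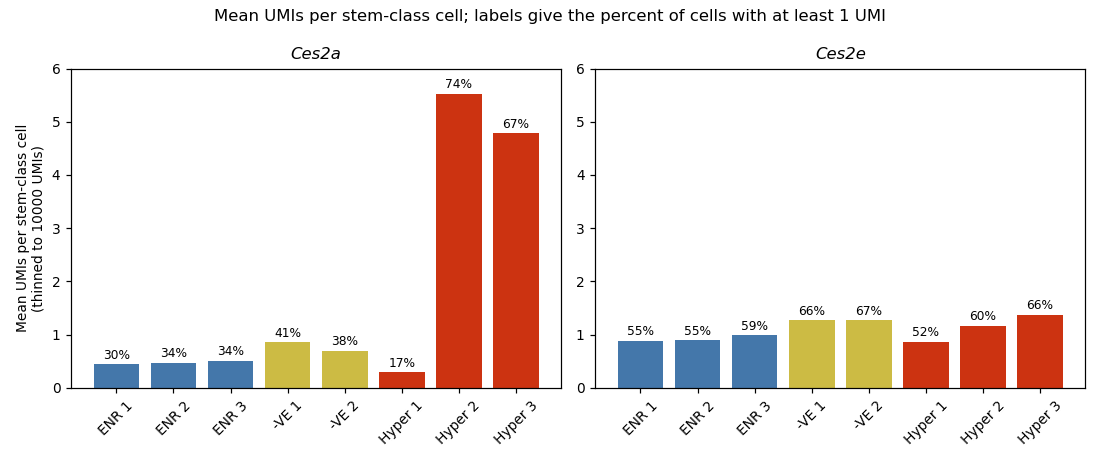
Mean Ces2a and Ces2e UMIs per stem-class cell after thinning each cell to 10000 UMIs, 1 bar per library, with the percent of cells that held at least 1 UMI above each bar. Hyper replicates 2 and 3 stand at 5.53 and 4.78 Ces2a UMIs against 0.293 to 0.855 in the other libraries, and the Ces2e bars stay between 0.868 and 1.38.

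In the summed level of the 4 stem markers of stem-class cells, given above, Hyper replicate 1 stood apart from replicates 2 and 3 as it did in Ces2a, and the part of these markers in the Ces2a values was not tested. In enterocytes Ces2a stood at 943, 1038 and 972 CPM in ENR-, 1847 and 798 in -VE- and 2168 and 1971 CPM in Hyper-organoids. The share of all Ces2a UMIs that came from enterocytes and progenitors was 79.7% to 86.6% in ENR- and 5.67% to 10.2% in Hyper-organoids. Ces2a alone made up 77.7% and 73.6% of the UMIs of the 8 members in Hyper replicates 2 and 3, 21.3% in replicate 1 and 33.4% to 38.7% in ENR-organoids.

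Whether a gene changed by a different amount in enterocytes than in stem cells was tested with limma on the difference between both classes within each of 7 libraries. For Hyper- against -VE-organoids the Ces2a difference was -1.85 ± 0.30 on the log2 scale (limma adjusted p = 0.0761), the Ces2c difference 1.36 ± 0.37 (limma adjusted p = 0.174) and the Ces2e difference 0.27 ± 0.22 (limma adjusted p = 0.559). None of these passed, in a test that 105 of 12162 genes passed. For -VE- against ENR-organoids 0 of the 12162 genes passed with limma and 1495 had an unadjusted p under 0.05. Ces1d (1.38 ± 0.32, limma adjusted p = 0.237) and Ces2e (-0.86 ± 0.20, limma adjusted p = 0.238) had the smallest p-values of the members with a test. The Hyper side of this test holds 2 libraries, replicates 2 and 3.

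Other carboxylesterase genes were counted for comparison. Of 12 listed, 10 had a row, 4 passed the filter on low counts, and Ces2d-ps and Ces4a were not analysed here. Between Hyper- and -VE-organoids, Ces1b, a neighbour in the Ces1 block, fell from 2.40 and 3.05 CPM to 0.339, 0.0862 and 0.169 CPM (-3.77 ± 0.43, edgeR adjusted p = 0.00034), and Ces1c, the esterase of mouse plasma, by -2.36 ± 0.40 (edgeR adjusted p = 0.00219). Ces1b shares 25.1% of its 3′ stretches with Ces1c. Ces2g, a further gene of the Ces2 group, stood at 39.7 and 40.1 CPM in -VE- and 27.6, 47.5 and 47.4 CPM in Hyper-organoids, with no call (0.03 ± 0.21, edgeR adjusted p = 0.913). Between -VE- and ENR-organoids 0 of these 4 genes were called by edgeR, beside 1.2% of all tested genes called lower, and 0 had an unadjusted p under 0.05. The medians of the 4 were -1.71 and -0.54 in these contrasts.

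Among 24 further genes of ester and lipid metabolism (esterases, lipases and the acyltransferases Dgat1, Dgat2 and Mogat2), 22 were tested, and between Hyper- and -VE-organoids 3 were called higher, beside 16.1% of all tested genes, with a median log2 fold change of -0.005 beside 0.01 over all genes. The 3 were Mgll, which cleaves monoacylglycerol (4.04 ± 0.28, edgeR adjusted p = 4.24e-05), Abhd6 (1.03 ± 0.09, edgeR adjusted p = 0.000106) and Pnpla3 (1.79 ± 0.53, edgeR adjusted p = 0.0249). Of the 4 most abundant, the Hyper means were 260 CPM for Esd, 80.3 for Pon2, 42.3 for Dgat1 and 41.5 for Aadac, and the log2 differences from -VE-organoids were -0.12, -0.30, -0.56 and -0.60, none past 2-fold. Between -VE- and ENR-organoids 1 gene, Mogat2, a monoacylglycerol acyltransferase, was called lower (-1.12 ± 0.15, edgeR adjusted p = 0.00725), beside 1.2% of all tested genes. The median of this list was 0.06, beside 0.00 over all genes.

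Of 14 transcription factors known to act on carboxylesterase genes, 10 had lower fitted levels in Hyper- than in -VE-organoids, 8 of these passed the p threshold and 2 also the 2-fold limit, where 22.6% of all tested genes passed the p threshold downwards and 2.51% both limits. In the other direction Nr1h4, the bile acid receptor, passed the p threshold but not the 2-fold limit (0.53 ± 0.13, edgeR adjusted p = 0.012), and 25% of all tested genes passed that threshold upwards. The 2 lower factors past both limits were Nr1i3, the xenobiotic receptor CAR, at 6.40 and 6.17 against 1.18, 2.31 and 2.15 CPM (-1.74 ± 0.25, edgeR adjusted p = 0.000981), and Ppara, a fatty acid sensor, at 7.59 and 7.24 against 3.54, 2.96 and 3.73 CPM (-1.12 ± 0.11, edgeR adjusted p = 0.000154). Between -VE- and ENR-organoids 12 had lower fitted levels, 5 of these passed the p threshold and 3 also the 2-fold limit, beside 3.62% and 1.2% of all tested genes. The 3 were Nr1i3 (-1.56 ± 0.26, edgeR adjusted p = 0.0136), Hnf4g (-1.09 ± 0.22, edgeR adjusted p = 0.0248) and Nr1h4 (-1.06 ± 0.13, edgeR adjusted p = 0.00572). The list medians were -0.36 and -0.24, beside 0.01 and 0.00 over all genes. The most abundant factors were Hnf4a, Nfe2l2, Cdx2 and Gata4, whose Hyper to -VE differences were -0.69, -0.47, 0.09 and -0.26, none past 2-fold.

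The genes whose pattern was most like each member were found by Pearson's r of log2 CPM over 45 units, each a class of at least 50 cells in 1 library, among 14304 genes outside the family. The units share libraries and cell classes, so r is a description. Ces2e ran closest to Cyb5a (0.978), Tm6sf2 (0.978) and Coro2a (0.973), and Ces2c to Dgat1 (0.945), Bpnt1 (0.944) and Mttp (0.943). Ces1f ran closest to Naip1 (0.938), Slc39a5 (0.932) and Prap1 (0.919), Ces1e to Nat8 (0.914), Fabp2 (0.911) and Gstm2 (0.909), and Ces1d to Gstm7 (0.920), Sis (0.883) and Apoc3 (0.868). Values were lower for Ces1g with Maoa (0.894), Dglucy (0.876) and Ifngr1 (0.867), for Ces2a with Abcb1a (0.868), Cbr3 (0.854) and Agpat2 (0.849), and for Ces2b with Hnf4aos (0.860), Gm21885 (0.844) and Sar1b (0.824). Abcb1a, which encodes a drug efflux pump, shared the order of Ces2a in the Hyper libraries, at 28.3, 66.1 and 59.1 CPM. So did the other genes nearest to Ces2a, Cbr3 at 53.6, 81.0 and 68.4 CPM and Agpat2 at 24.0, 33.9 and 33.6 CPM, and the member Ces2c. Abcb1a, Cbr3 and Agpat2 were picked by correlation over units that include these libraries, so nothing is read from the shared order. Ces2g and the share of enterocytes and progenitors among kept cells had the same order. Between members r was lowest for Ces1d with Ces2a (0.295) and highest for Ces2c with Ces2e (0.883).

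In colonic crypts all 8 members were detected, with another order. Ces2c stood at 125 CPM in normal and 165 CPM in DSS crypts and Ces2e at 119 and 165 CPM, whereas Ces2a, the leading gene of organoid enterocytes, was at 37.7 and 53.8 CPM. These levels are those of kept cells only. In the normal library 751 Ces2a UMIs lay in kept cells and 2160 in other barcodes, and in the DSS library 1743 and 2889. For Ces2c the counts were 2491 and 4696 in the normal and 5350 and 4212 in the DSS library. There is 1 library per condition, so no test was possible, and intervals are exact 95% Poisson limits that cover counting error only. DSS crypts held more Ces1g, at 66.4 CPM (63.6 to 69.2) against 40.4 (37.7 to 43.3), and more Ces2b, at 7.75 (6.82 to 8.77) against 3.77 (2.96 to 4.72). The intervals of Ces2a, Ces2c and Ces2e also did not overlap, with log2 ratios of 0.50, 0.40 and 0.48 after adding 1 CPM, where 21.7% of 12440 expressed genes were higher in DSS crypts without overlap, while those of Ces1d, Ces1e and Ces1f overlapped, with ratios of 0.20, 0.05 and 0.12. With 1 CPM added none of the 8 reached 2-fold, a size that 5.08% of these genes passed, and with nothing added Ces2b did, at 2.06-fold.

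The colonic libraries held 25 annotated clusters, 6 of them rich in leukocytes (over 50% of cells with a Ptprc UMI). Without those clusters and other Ptprc cells the 8 ratios were 0.08 to 0.89, and the intervals of Ces1d and Ces1f then no longer overlapped. Nothing is read from this, since the share of all genes without overlap is given for all kept cells only. Cluster 1, high in the colonocyte marker Car1, held Ces1g at 118 CPM (105 to 132) in 95 normal cells and 205 CPM (193 to 217) in 207 DSS cells, and Ces1f at 109 CPM (96.5 to 123) and 142 CPM (132 to 152). Cluster 2, which the authors annotated as stem cells, held Ces1d at 32.5 CPM (25.8 to 40.5) in 102 normal cells and 91.9 CPM (82.0 to 103) in 168 DSS cells. In cluster 6, another Car1-rich cluster, Ces2c stood at 318 CPM (290 to 348) in normal and 534 CPM (510 to 559) in DSS crypts, and Ces2e at 347 CPM (317 to 378) and 479 CPM (456 to 503). Ces1f in cluster 6 was at 106 CPM (90.4 to 124) and 90.7 CPM (80.8 to 101), with overlap. The other colonocyte markers, Car4, Slc26a3, Aqp8 and Krt20, were all lower in cluster 1 than in cluster 6. Krt20 stood at 232 and 195 CPM in normal and DSS cells of cluster 1, and at 1323 and 1229 CPM in cluster 6. Aqp8 in cluster 1, at 4.12 and 5.98 CPM, was near the 4.06 and 4.38 CPM of cluster 2. Levels were not higher in DSS crypts in every cluster. Cluster 13 held Ces1f at 51.2 CPM (39.2 to 65.6) in 36 normal cells and 15.3 CPM (9.32 to 23.6) in 54 DSS cells. Its Ces2e stood at 47.0 CPM (35.6 to 60.9) and 15.3 CPM (9.32 to 23.6). The genes and clusters named here are examples. The share of all genes without overlap is not given within clusters, so nothing is read from these intervals either.

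The highest levels of the 4 Ces2 members among clusters of at least 10 cells lay in cluster 17, with 57 DSS cells and 0 normal cells, where cluster and library cannot be told apart. It held 1332 CPM of Ces2a (1172 to 1507), 1433 CPM of Ces2c (1267 to 1614), 1263 CPM of Ces2e (1108 to 1434) and 281 CPM of Ces2b (211 to 368). The same limit holds for cluster 12, with 93 normal cells and 1 DSS cell, which held 806 CPM of Ces2c (737 to 879), 308 CPM of Ces2e (266 to 354) and 205 CPM of Ces2a (171 to 244). Both clusters carried the colonocyte markers Car4, at 2192 and 5134 CPM, and Krt20, at 998 and 2944 CPM. Of the other colonocyte markers, Slc26a3 was at 106 and 806 CPM, Aqp8 at 589 and 3060 CPM and Car1 at 2929 and 1772 CPM. The clusters also differed in Ces1f, at 58.4 CPM (29.1 to 104) in cluster 17 and 3.20 CPM (0.388 to 11.6) in cluster 12. Cells of both were shallow, with 188446 UMIs in the 57 cells of cluster 17 and 624256 in the 93 normal cells of cluster 12. Cluster 1 held 5518155 UMIs in 207 DSS cells. Of the colonic cells, 291 of 1132 normal and 533 of 1933 DSS cells had under 1500 genes. The alternative with cells of at least 1500 genes covered the organoid libraries only. In the leukocyte-rich clusters Ces2a was at 0 to 21.6 CPM and Ces1f at 0 to 5.40 CPM. Ces1d was at 242 CPM (129 to 415) in 1 of them, cluster 18 of the normal library, on 13 UMIs in 11 cells, and at 0 in the 33 DSS cells of that cluster.

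**Figure D5:**
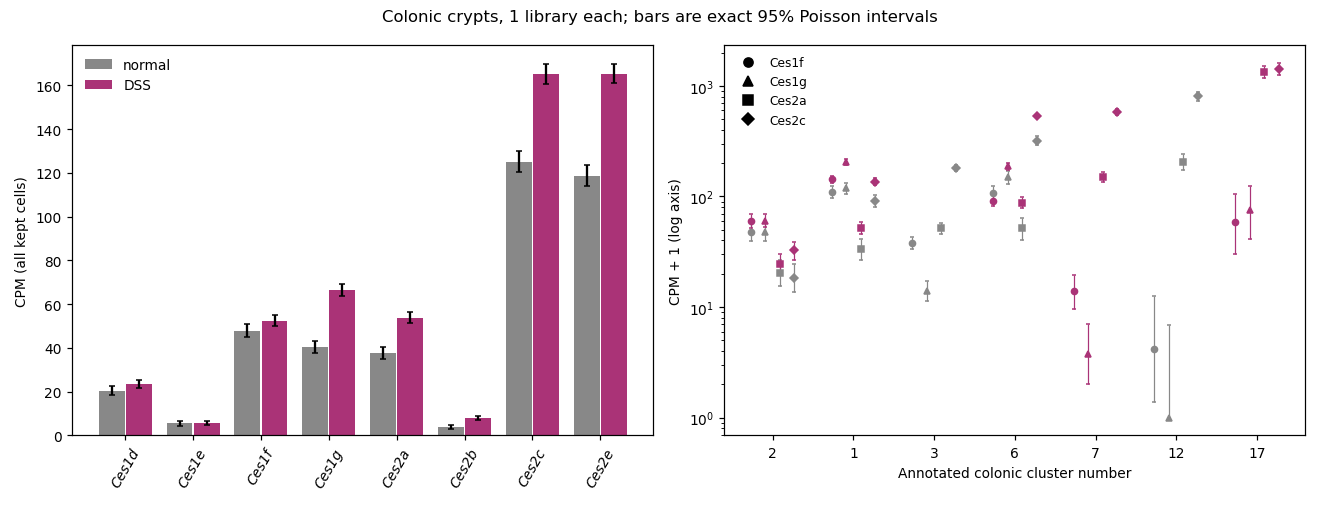
Left, CPM of the 8 genes over all kept cells of 1 normal and 1 DSS colonic library, and right, CPM + 1 on a log axis of 4 of them in 7 annotated clusters with at least 10 cells of the library shown (grey normal, purple DSS); bars are exact 95% Poisson intervals. Ces2a and Ces2c reach 1332 and 1433 CPM in cluster 17, and Ces1f and Ces1g are higher in cluster 1, at 109 to 205 CPM, than in cluster 12.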

How the data were processed

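The members and gene lists were chosen with earlier results of these data known. Crypt organoids and colonic crypts were sequenced by the authors with the 10x 3′ kit, and reads were mapped to mm10 and counted with Cell Ranger (version 3.0.0 in the submitters' processing notes, 3.1.0 in the matrix headers). The deposited values are raw UMI counts per gene and cell, with cell classes annotated by the authors (Seurat 3.1.4). Kept cells had at least 501 genes and at most 20.0% mitochondrial UMIs, although the methods state a stricter gene minimum, and 0 columns were unmapped. In all, 25204 cells of 10 libraries were used, and the entries of the members differed from the library matrices in 0 of 201632 values. Barcodes outside the kept cells also held UMIs of the members, which enter no level. For Ces2a these numbered 15553 in ENR replicate 1, beside 14979 in kept cells, and 6475 in Hyper replicate 2, beside 69289. For Ces1f they numbered 2444, 2425 and 1722 in the ENR, 829 and 538 in the -VE and 63, 37 and 37 in the Hyper libraries. The part of stray transcripts in the values by class was not tested.

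Counts were summed per library, and per library and class of at least 10 cells. Printed CPM of single genes over all kept cells of the organoid libraries are TMM-scaled, and all other CPM use the plain UMI total. edgeR 4.0.16 (filterByExpr, TMM, quasi-likelihood F test, all 8 organoid libraries, no covariate) gave log2 fold changes, with Benjamini-Hochberg adjusted p over all genes tested. A call needs an adjusted p under 0.05 and at least 2-fold. Change in enterocytes against stem cells was tested with limma 3.58.1 on log2 CPM (prior count 2). Both scripts were tested on simulated data. Intervals for colonic CPM are exact Poisson at 95%, covering counting error only, and log2 ratios there add 1 CPM. Doublets were not called anew, and an alternative left out the 5% of cells with most UMIs. R 4.3.3, DESeq2 1.42.0 and Python 3.11.15 were also used.

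Labels give a culture series per library. Deviations from group means correlated at 0.170 to 0.436 between same-series ENR and Hyper libraries (3 pairs, 16037 genes), and at -0.292 to 0.129 between those of different series. Same-series values were 0.0617 to 0.161 between -VE and ENR and 0.115 to 0.139 between -VE and Hyper libraries. Deviations within a group balance out, so these values are not independent. The series may thus pair the libraries. The reported p-values come from fits without the series, and fits with the series as a replicate block were run as an alternative. The other alternatives were DESeq2, RLE size factors, other filters on low counts, cells of at least 1500 genes, cells thinned to 10000 UMIs, and each library left out.

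All 8 members were named. By rule, other carboxylesterases were named with a group mean of at least 1 CPM, and the 4 most abundant genes of the other lists. Their called genes were named, and the levels of Abcb1a, Cbr3 and Agpat2 given, after their values were seen. The 3 genes with the highest correlation to each member were named. Protein sequences were not used here, and coding sequences of GENCODE transcripts were aligned in their place.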

Additional observations from a re-analysis of the deposited data

How the results depend on the processing

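The 7 members other than Ces2a kept their direction in the 3 contrasts over all kept cells under each alternative that fitted them. These numbered 15 for Ces1g, 14 for Ces2b and 16 for the others. Ces2a between -VE- and ENR-organoids (-0.26) turned to 0.15 with a replicate block for the culture series, and ranged from -0.76 to 0.11 with 1 library left out, the highest being without -VE replicate 2. Within the stem class, Ces2c between -VE- and ENR-organoids (-0.03) turned to 0.074 with the replicate block and ranged from -0.12 to 0.076 with 1 library left out, positive without ENR replicate 2 or -VE replicate 2 (0.044), and Ces2e between Hyper- and ENR-organoids (0.12) ranged from -0.065, without Hyper replicate 3, to 0.30. The cause was not tested for any of these.

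The counts here are in either direction and include Ces1f and the contrast that led to the choice, as a description. Of the 8 members, 7 passed the limits of a call between Hyper- and ENR-organoids, and 4 of the 6 still fitted when at least 10 CPM in 2 libraries was required (9.5% of all genes called). Without a filter on low counts, and equally with the replicate block, the members called between -VE- and ENR-organoids numbered 1 in transit-amplifying cells and 1 in enterocytes (0 in the reported fit) and 2 in progenitors (1 reported), and 4 in enterocytes between Hyper- and -VE-organoids (2 reported). The shares of all genes called there, without the filter and with the block, were 1.1% and 1.38%, 3.48% and 4.22%, 0.987% and 0.906%, and 7.1% and 6.44%. The block also moved the calls of Ces1g and Ces1e given with the results and ended that of Ces2a between Hyper- and ENR-organoids in transit-amplifying cells (1.90), and it changed no other call over all kept cells.

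With 1 library left out, the members called over all kept cells numbered 0 to 5 between -VE- and ENR-organoids, 5 to 6 between Hyper- and -VE-organoids and 6 to 7 between Hyper- and ENR-organoids, beside 0.579% to 3.28%, 13.4% to 18.6% and 21.1% to 22.9% of all genes. Without Hyper replicate 1 the count between Hyper- and -VE-organoids includes Ces2a, called higher. In the same order of contrasts the ranges were 0 to 1, 3 to 5 and 4 to 6 in stem, 0 to 1, 4 to 6 and 5 to 6 in transit-amplifying, 0 to 1, 2 to 4 and 2 to 5 in enterocyte, 0 to 0, 2 to 3 and 3 to 4 in goblet and 0 to 0, 0 to 0 and 0 to 1 in enteroendocrine cells. The shares of all genes called were 0.0574% to 1.09%, 11.6% to 16.9% and 15.8% to 17.7% in stem, 0.262% to 1.66%, 13.8% to 18.0% and 19.5% to 20.9% in transit-amplifying, 1.01% to 3.82%, 4.09% to 6.73% and 7.17% to 10.7% in enterocyte, 0.0912% to 1.5%, 6.03% to 10.2% and 11.5% to 13.5% in goblet and 0.0271% to 0.547%, 1.17% to 4.32% and 5.1% to 7.72% in enteroendocrine cells. Between -VE- and ENR-organoids members called were 0 to 2 in progenitors and 0 to 1 in Paneth cells, beside 0.0553% to 0.793% and 0.326% to 1.26% of all genes. A group left with 1 library is assumed to vary like the others.

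The fits in progenitors and Paneth cells and the fit without the 5% of cells with most UMIs were chosen after seeing the data. The planned comparison of protein sequences was not run. Ces1g and Ces2b rest on at most 30 UMIs in each Hyper library, which limits their precision there.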

Other observations

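Paneth cells, which secrete antimicrobial peptides, were few, with 32, 40 and 54 cells in the ENR libraries. Ces2e was their leading member, at 29.4, 22.5 and 28.9 CPM, ahead of Ces2a at 4.41, 17.1 and 13.7 CPM. Ces1g was at 0 in 2 of these libraries and Ces2b in all 3. In colonic crypts, Ces2f, a gene of the Ces2 group outside the 8 members, was counted at 0.452 CPM in the normal library (95% Poisson interval 0.207 to 0.858, 9 UMIs) and 1.39 CPM in the DSS library (1.01 to 1.86, 45 UMIs).

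The share of the UMIs of the 8 members that came from the 4 Ces1 genes was 11.4% to 14.8% in the ENR libraries, 7.41% and 8.56% in the -VE libraries, 4.91%, 0.790% and 0.835% in the Hyper libraries, and 28.6% and 27.4% in normal and DSS colonic crypts. The summed level of the 8 members, scaled to the plain UMI total without the TMM factor, was 461 to 585 CPM in ENR-, 424 and 312 CPM in -VE- and 121, 628 and 527 CPM in Hyper-organoids.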
